A study of Homo sapiens with 5 samples.

Results

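RMRP (Entrez ID 6023), RPPH1 (85495), RN7SK (125050), RN7SL1 (6029) and RN7SL2 (378706) encode abundant structured RNAs made by RNA polymerase III, described here across 5 libraries of a prostate cancer line. They are 5 of the 25702 genes in the deposited table and were found by their symbols. Their listed lengths are 268, 341, 332, 299 and 299 nt. They were selected on their raw counts in the 5 libraries, with both inputs pooled as the base for PSF-RIP over input, so those levels are given as a description without a test. All 5 passed the filter on low counts in both comparisons.

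LTAD is a human prostate cancer line, grown here in phenol-red-free medium with charcoal-stripped serum, which is low in androgens, so this holds for every library. PSF, an RNA-binding protein of the nucleus and the product of the SFPQ gene, was immunoprecipitated from lysates (RIP), and the RNA that came with it was sequenced. The groups were PSF-RIP from cells given 5 µM No.10-3 (2 libraries, replicates 1 and 2), PSF-RIP from cells given the DMSO vehicle (1 library), and input RNA (2 libraries, 1 vehicle and 1 No.10-3). No.10-3 is a small molecule known here by its code name. The names of the input columns do not tell the vehicle from the No.10-3 input, so both were pooled and are called the first and the second input. The columns taken as No.10-3 PSF-RIP carry the compound's name but not that of PSF: 1 was matched by its replicate number, the other by elimination. The labels list no control immunoprecipitation among these samples, so binding to PSF and carry-over onto the beads cannot be told apart. They do not say whether the libraries of a group came from separate cultures, so any spread between them may be technical.

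RMRP and RPPH1 are the catalytic RNAs of 2 related enzymes that share most of their protein subunits. RMRP is the RNA of RNase MRP, a mainly nucleolar enzyme that cleaves precursor ribosomal RNA, and RPPH1 is the H1 RNA of RNase P, which removes the leader of precursor tRNAs. RN7SK encodes 7SK, a nuclear RNA that holds the elongation kinase P-TEFb inactive together with HEXIM proteins and LARP7. RN7SL1 and RN7SL2 encode 7SL, the scaffold of the signal recognition particle (SRP), which directs nascent secretory proteins to the endoplasmic reticulum from the cytoplasm. RN7SL1 and RN7SL2 are near-identical copies, and both 7SL and 7SK have many genomic pseudogenes. The split of reads between the 7SL copies is therefore uncertain.

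The libraries held 1519362 and 3368252 counts over genes in No.10-3 PSF-RIP (replicates 1 and 2), 2181770 in vehicle PSF-RIP, and 4010376 and 3083063 in the inputs. All 9 luminal prostate markers had counts, among them KLK2 and HOXB13, at a summed 2630 to 3124 CPM (counts scaled to the library total) in PSF-RIP and 569 CPM in each input. The basal markers KRT5 and TP63 and the blood markers PTPRC, CD3E and CD14 were at 0 in all libraries. Summed CPM was at most 1.19 for basal, 75.2 for stromal (nearly all COL1A1), 14.5 for blood and endothelial, and 152 for neuroendocrine markers (nearly all ENO2).

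The 5 RNAs dominated the input libraries and were a small part of the PSF-RIP libraries. As a sum they took 6.70% of all counts in No.10-3 PSF-RIP replicate 1 (6.66 to 6.74%), 2.63% in its replicate 2 (2.61 to 2.64%), and 7.81% in vehicle PSF-RIP (7.78 to 7.85%), against 51.7% in the first input (51.7 to 51.8%) and 55.0% in the second (55.0 to 55.1%). The 95% Wilson intervals in brackets cover counting error only. With the 13 mitochondrially encoded mRNAs added, the shares were 18.8%, 12.1% and 14.7% in PSF-RIP and 77.9% and 79.4% in the inputs. In a bulk library, fewer cells holding an RNA and less of it per cell cannot be told apart. With library totals alone the median gene would stand 2.42 higher in PSF-RIP on the log2 scale, and 1.41 higher with totals that leave out the 5 RNAs. Log2 differences from input are therefore given on the TMM scale, in which edgeR sets the bulk of genes level between libraries, unless another scale is named. CPM values are plain shares of the total. Ratios marked as by CPM compare those shares, and on them the 5 RNAs lie closer to input than on the TMM scale.

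**Figure D1:**
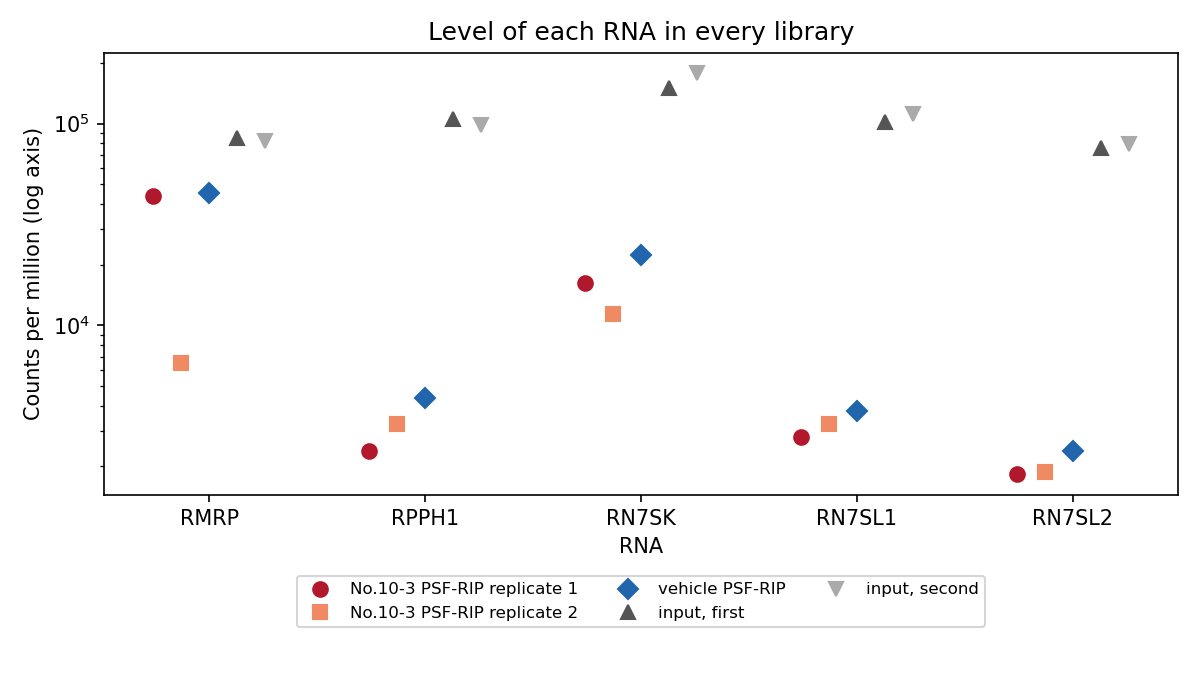
Level of each RNA in CPM on a log axis, with 1 point per library: No.10-3 PSF-RIP replicates 1 and 2 and vehicle PSF-RIP left of the 2 inputs. Every PSF-RIP point lies under both inputs of the same RNA, and RMRP has a PSF-RIP point, replicate 2 with 6501 CPM, far under the other 2.

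RMRP, the RNase MRP RNA, lay closest to its input level. It stood at 43714 CPM in No.10-3 PSF-RIP replicate 1, 6501 in replicate 2 and 45286 in vehicle PSF-RIP, against 84921 and 81643 CPM in the inputs. It was the most abundant RNA of the whole table in vehicle PSF-RIP and in replicate 1, and was ranked 8 in replicate 2 and 4 in both inputs. By CPM its input mean was 1.91 times the level of replicate 1, 12.8 times that of replicate 2 and 1.84 times that of vehicle PSF-RIP. On the TMM scale the log2 difference from the input mean was -3.17 in replicate 1, -6.13 in replicate 2 and -3.23 in vehicle PSF-RIP.

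RPPH1, the RNase P RNA, was lower than its sister RNA in every PSF-RIP library, by the least in replicate 2. It stood at 2381 CPM in replicate 1, 3242 in replicate 2 and 4360 in vehicle PSF-RIP, against 105565 and 98837 CPM in the inputs. The PSF-RIP libraries lay close to each other and at least 22.7 times under the lower input by CPM. The TMM log2 differences from the input mean were -7.67, -7.43 and -6.90.

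RN7SK, the P-TEFb regulator, lay between these in its distance from input. It stood at 16270 CPM in replicate 1, 11393 in replicate 2 and 22303 in vehicle PSF-RIP, against 150007 and 178192 CPM in the inputs, where it was the most abundant RNA. Its TMM log2 differences from the input mean were -5.57, -6.29 and -5.23. By CPM the lower input was 6.73 times the highest PSF-RIP library.

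The 7SL copies, the RNAs of the SRP, lay about as far under their inputs as RPPH1, which was the lowest of the 5 in replicate 1 on the TMM scale. RN7SL1 stood at 2799 CPM in replicate 1, 3244 in replicate 2 and 3782 in vehicle PSF-RIP, against 101445 and 112084 in the inputs. RN7SL2 stood at 1825, 1878 and 2381 CPM in the same PSF-RIP libraries, against 75450 and 79350 in the inputs. Their TMM log2 differences from the input mean were -7.49, -7.49 and -7.17 for RN7SL1 and -7.65, -7.82 and -7.38 for RN7SL2. The 3 PSF-RIP libraries of each copy lay within a narrow band, far under both inputs.

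In the fit of the 3 PSF-RIP libraries against the 2 inputs, the log2 fold change was -3.70 for RMRP, -7.30 for RPPH1, -5.64 for RN7SK, -7.38 for RN7SL1 and -7.60 for RN7SL2. All PSF-RIP libraries lay under both inputs for 5 of the 5, as for 25.1% of the 13321 genes tested. Over all genes the fit called 10.4% lower and 10.0% higher (20.4% in either direction). The members were chosen with this contrast known, so nothing is read from their count and no test of them is given. As a description of their place, among the 13316 other genes tested, 36 had a lower fold change than RMRP, 7 lower than RN7SK, and 2 lower than each of RPPH1, RN7SL1 and RN7SL2. The size depends on the scale: with library totals alone the log2 fold change was -1.39 for RMRP and -4.94 for RPPH1. The median of all genes was 2.42 with those totals and 0.08 with TMM, and relative to that median the values were -3.80 for RMRP and -7.36 for RPPH1.

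**Figure D2:**
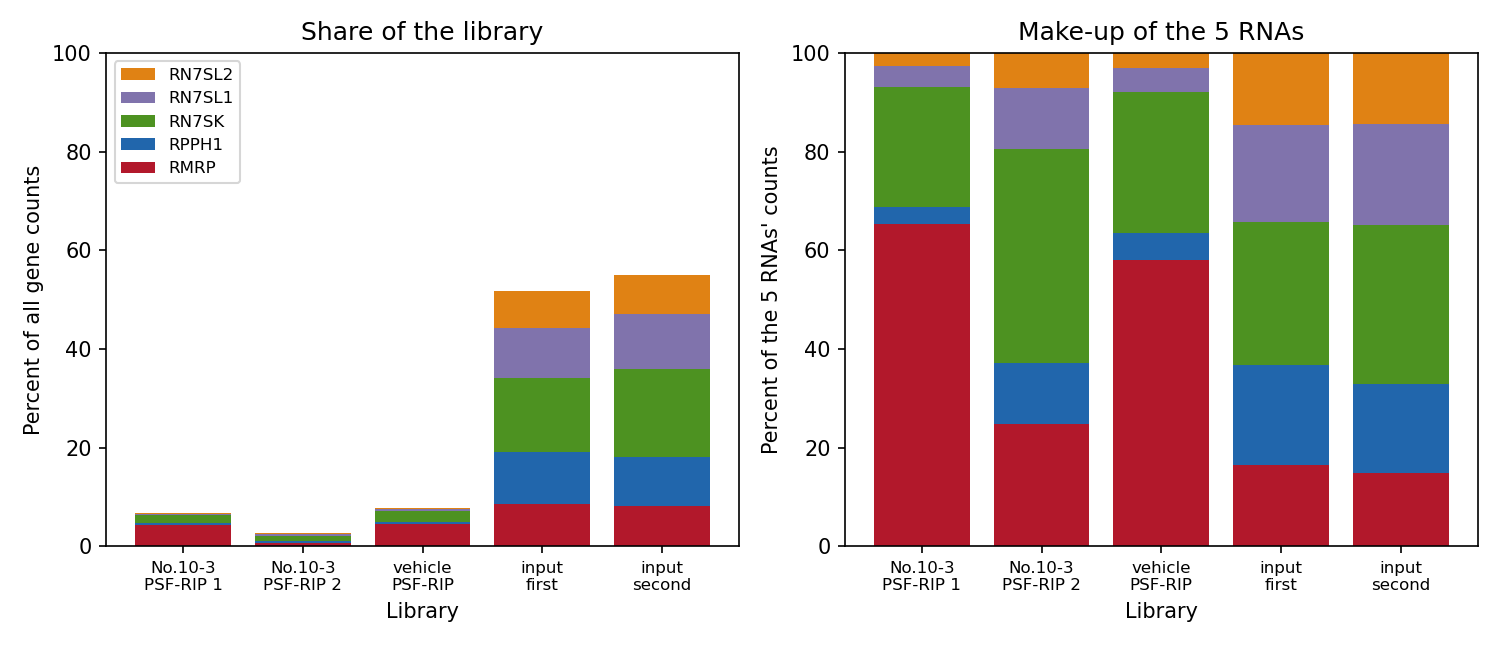
Left, percent of all gene counts taken by each of the 5 RNAs in every library, stacked. Right, the make-up of the 5 RNAs alone, where RMRP takes 65.3% and 58.0% in No.10-3 PSF-RIP replicate 1 and vehicle PSF-RIP, 24.8% in replicate 2, and 16.4% and 14.8% in the inputs.

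Set against each other within a library, which needs no scaling, the RNAs stood in similar though not equal proportions in the inputs. In PSF-RIP the share of RMRP was higher and spread more widely. RMRP took 65.3% of the counts of the 5 in No.10-3 replicate 1, 24.8% in replicate 2 and 58.0% in vehicle PSF-RIP, against 16.4% and 14.8% in the inputs. RN7SK took 24.3%, 43.4% and 28.6% in PSF-RIP, against 29.0% and 32.4% in the inputs. Replicate 2 thus differed from the other PSF-RIP libraries in which RNA led: RN7SK in replicate 2 and RMRP in the others.

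The ratio of RMRP to RPPH1 counts, the RNAs of the paired enzymes, was 18.4 in replicate 1 (95% exact interval 17.8 to 19.0), 2.01 in replicate 2 (1.96 to 2.05) and 10.4 in vehicle PSF-RIP (10.2 to 10.6), against 0.804 and 0.826 in the inputs. All 3 PSF-RIP libraries had a higher ratio than both inputs, and they spread over a far wider range than the inputs. RN7SK over RPPH1 was 6.83, 3.51 and 5.12 in PSF-RIP, against 1.42 and 1.80 in the inputs. By contrast RPPH1 over RN7SL1 was 0.850, 0.999 and 1.15 in PSF-RIP, against 1.04 and 0.882 in the inputs. RPPH1 and RN7SL1 therefore stood in similar though not equal proportion in every library, with groups that overlap. The 95% exact interval was 0.813 to 0.889 in replicate 1 and 1.12 to 1.19 in vehicle PSF-RIP. No ratio of RPPH1 to RN7SL2 was taken. The ratio of the 7SL copies, RN7SL1 over RN7SL2, was 1.53, 1.73 and 1.59 in PSF-RIP, against 1.34 and 1.41 in the inputs. It depends on how reads common to both copies were assigned.

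Levels of different RNAs can be compared per length as FPKM, here each count over the listed length and the library total. In the inputs the order by FPKM was RN7SK (494275 ± 60028, SD, n = 2), RN7SL1 (357072 ± 25161), RMRP (310753 ± 8648), RPPH1 (299710 ± 13953) and RN7SL2 (258863 ± 9222). The means of RMRP and RPPH1 differed there by less than the SD of RPPH1. Within each input RMRP was slightly higher, at 1.02 and 1.05 times RPPH1 by FPKM. In vehicle PSF-RIP the FPKM values were 168977 for RMRP, 67178 for RN7SK, 12785 for RPPH1, 12650 for RN7SL1 and 7964 for RN7SL2. In No.10-3 PSF-RIP they were 163111 and 24257 for RMRP, 49006 and 34317 for RN7SK, 9362 and 10850 for RN7SL1, 6981 and 9507 for RPPH1, and 6104 and 6279 for RN7SL2, each in replicates 1 and 2. RN7SL2 came last in all 5 libraries.

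**Figure D3:**
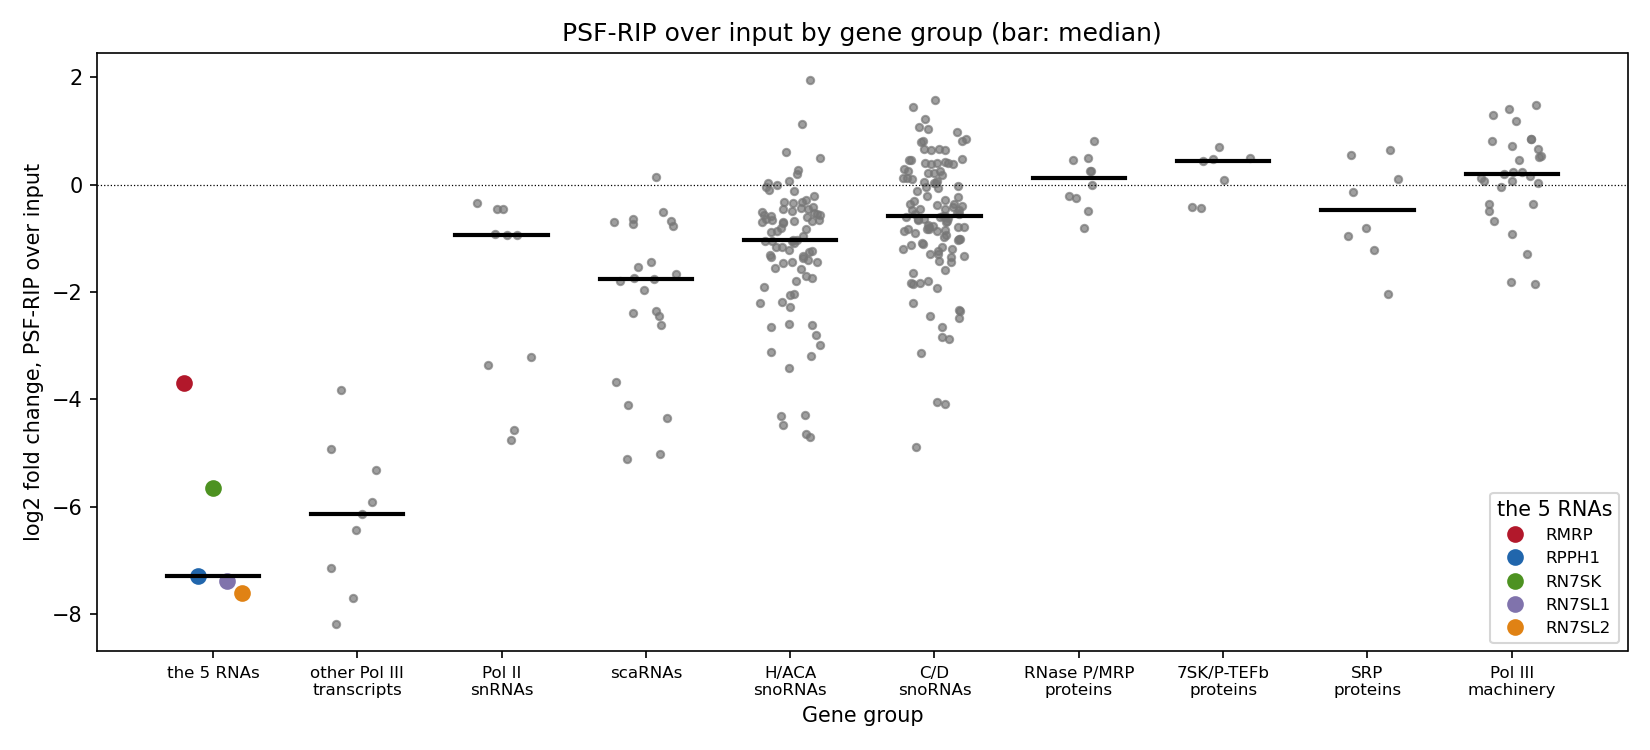
log2 fold change of PSF-RIP over input for each tested gene of 10 gene groups, with the group median as a bar. The 5 RNAs run from -3.70 for RMRP to -7.60 for RN7SL2, other RNA polymerase III transcripts run from -8.18 to -3.83, and the mRNAs of partner proteins lie around 0.

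Other short RNAs spread widely around and below their input level. Among other RNA polymerase III transcripts (Y RNAs, vault RNAs, U6atac and the like), 9 of 56 passed the filter over all 5 libraries, and 7 passed it over PSF-RIP alone. RNY4 and BCYRN1 passed only through the inputs, where they were high, so they had to be lower in PSF-RIP. The fold changes of the 9 ran from -8.18 to -3.83, and no count of calls is given for them. RNY1, a Y RNA that binds Ro60, had 64, 71 and 84 counts in PSF-RIP, against 2292 and 1814 in the inputs (log2 fold change -6.44). RNY5 had 2, 12 and 6 counts, against 516 and 301 in the inputs. RNU6ATAC, the U6atac RNA of the minor spliceosome, was closer to its input, with 171, 81 and 214 counts, against 871 and 695 (log2 fold change -3.83). VTRNA1-3, a vault RNA, had 18, 36 and 62 counts, against 538 and 402 (-5.31).

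Spliceosomal snRNAs made by RNA polymerase II had a median of -0.93, with 4 of 10 tested called lower and 0 higher, beside 10.4% and 10.0% of all genes. RNU4-2, a U4 RNA, was at -4.57, while RNU5A-1 and RNU5B-1, of U5, were at -0.46 each and did not pass the test. Small RNAs of the Cajal body (scaRNAs) had a median of -1.75 with 15 of 23 called lower, H/ACA snoRNAs -1.03 with 24 of 85, and C/D snoRNAs -0.59 with 15 of 115. The share of C/D snoRNAs called lower is near that of all genes, and 0 members of these 3 groups were called higher. SCARNA14 (-4.35), SNORD3D (-4.09), SNORD3B-2 (-4.88) and SNORD116-13 (-4.04) passed the filter only through the inputs, so they had to be lower in PSF-RIP. Nothing is therefore read from the counts of calls for scaRNAs and C/D snoRNAs. The highest fold changes were 0.14 for scaRNAs (SCARNA27), 1.95 for H/ACA snoRNAs (SNORA60) and 1.59 for C/D snoRNAs (SNORD24), none past the test, and these 3 RNAs were picked after their values were seen. Short listed length moved with these values, though not in step. Without the 5 RNAs, the 235 tested genes of at most 200 nt had a median of -0.76. The 132 of over 200 and up to 500 nt had -1.16. The next classes, up to 1000, 2000 and 5000 nt, were at -0.49, 0.06 and 0.20, the last with 6815 genes. Genes of over 5000 nt were at 0.11. Of the 132 genes in the length range that holds the 5 RNAs, 5 had a lower fold change than RMRP and 0 a lower one than any of the other 4. These places, too, depend on how high a gene was in input. The part of RNA length, and of its recovery into a library, in these values was not tested. NEAT1 and MALAT1, long nuclear RNAs known to bind PSF, were at -1.12 and -0.18 and did not pass the test.

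The series asks by its title whether a small molecule changes which RNAs PSF binds. With No.10-3, RMRP was close to the vehicle level in 1 replicate and far under it in the other, and the other 4 RNAs lay under vehicle in both on the main scale. None of these differences passed the test. With TMM from genes of up to 500 nt, the fitted change of these 4 turned to 0.51 for RPPH1, 0.27 for RN7SK, 0.78 for RN7SL1 and 0.71 for RN7SL2, where the median gene moved to 1.13. By CPM the vehicle level of RMRP was 1.04 times that of replicate 1 and 6.97 times that of replicate 2. On the TMM scale the log2 difference from vehicle was 0.06 in replicate 1 and -2.91 in replicate 2. The treated pair thus spanned a wider range for RMRP (6.72 times by CPM) than lay between replicate 1 and vehicle.

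For RPPH1 the TMM log2 differences from vehicle were -0.76 in replicate 1 and -0.53 in replicate 2. For RN7SK they were -0.34 and -1.07. RN7SL1 was at -0.32 and -0.33, the closest pair of the 5, and RN7SL2 at -0.27 and -0.45. On this scale 4 of the 5 lay under vehicle in both treated libraries, as did 32.6% of the 13766 genes tested. RMRP in replicate 1 lies just under vehicle by CPM and just over it on the TMM scale. Both differences of an RNA use the same vehicle library, and the 7SL copies share reads, so these are not independent observations.

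edgeR's quasi-likelihood test over the 3 PSF-RIP libraries gave log2 fold changes of -0.76 for RMRP (SE 1.09), -0.64 for RPPH1 (SE 0.82), -0.66 for RN7SK (SE 0.999), -0.32 for RN7SL1 (SE 0.82) and -0.36 for RN7SL2 (SE 0.77), each with an adjusted p of 0.998. It called 0 of 13766 genes (0%), with 563 at an unadjusted p under 0.05. DESeq2 called 0, with 123 at an unadjusted p under 0.05. Its spread comes from the 2 treated libraries alone, pooled over genes, and the lone vehicle library is assumed to vary like them. The RMRP value rests on replicate 2: in the fit of all 5 libraries it was -2.91 without replicate 1 and 0.06 without replicate 2.

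The inputs give the difference between libraries of total RNA. If the columns are, as the labels list, 1 vehicle and 1 No.10-3 input, then whichever is which, their TMM log2 difference was 0.03 for RMRP in size and at most 0.33, for RN7SK. By CPM the higher input was 1.04 times the lower for RMRP and 1.07 times for RPPH1. The gap of RMRP between vehicle PSF-RIP and No.10-3 replicate 2 was larger than the differences between these inputs for any of the 5. The inputs do not show how much immunoprecipitations vary, so they are no measure for that gap. RMRP differed 6.72 times by CPM between the treated PSF-RIP libraries themselves. Neither input has a replicate here, so the difference between the inputs has no error.

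**Figure D4:**
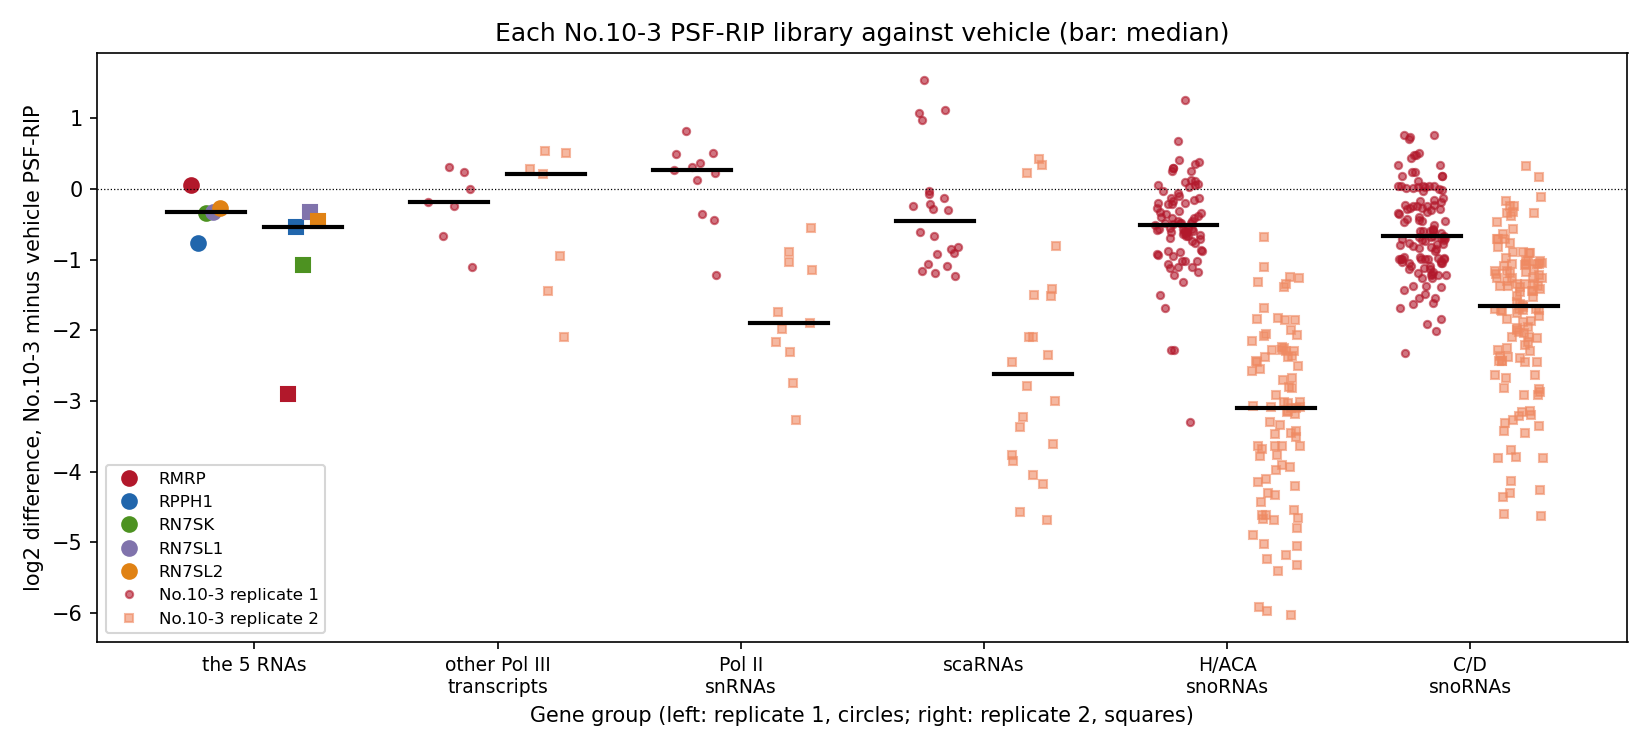
log2 difference of each No.10-3 PSF-RIP library from vehicle PSF-RIP (replicate 1 as circles on the left, replicate 2 as squares on the right) for the 5 RNAs and 5 groups of other short RNAs, with medians as bars. In replicate 2 RMRP, at -2.91, sits among the snRNAs, scaRNAs and snoRNAs, whose medians run from -1.66 to -3.10, while RPPH1, RN7SL1 and RN7SL2 lie between -0.53 and -0.33.

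Groups of other short nuclear RNAs also had lower values in replicate 2 than in replicate 1. Median log2 differences from vehicle were 0.27 in replicate 1 and -1.89 in replicate 2 for snRNAs, -0.45 and -2.62 for scaRNAs, -0.51 and -3.10 for H/ACA snoRNAs and -0.67 and -1.66 for C/D snoRNAs. They were -0.0024 and 0.01 over all genes tested. The test called 0 members of these groups, with a lowest adjusted p of 0.14 by edgeR among the snoRNAs. RNU5A-1 stood 0.50 over vehicle in replicate 1 and at -2.17 in replicate 2. The other RNA polymerase III transcripts had medians of -0.18 and 0.21 over 7 tested genes, some with few counts. The library of replicate 2 held 4.22% of its counts in genes listed at up to 500 nt, against 12.1% in replicate 1, 14.3% in vehicle PSF-RIP, and 56.9% and 59.7% in the inputs. The part of this lower content of short RNAs in the RMRP value was not tested. By listed length, other genes of over 200 and up to 500 nt had median differences from vehicle of 0.22 in replicate 1 and -0.50 in replicate 2, and those of at most 200 nt -0.50 and -2.03.

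mRNAs that encode the protein partners of the 5 RNAs mostly lay near their input level. RNase P and RNase MRP protein mRNAs had a median log2 fold change over input of 0.12, with 0 of 10 tested called in either direction. Over all genes that share was 20.4%, so nothing is read from counts of calls in lists this short. The RNase P and RNase MRP RNAs stood at -7.30 and -3.70. POP1, the largest subunit, had 52, 102 and 131 counts in PSF-RIP (log2 fold change 0.50), and POP5, POP7 and RPP14 were at 0.25, 0.25 and -0.80. The mRNAs of the 7SK particle and P-TEFb had a median of 0.44 with 0 of 7 called. Among them were HEXIM1 at 0.49, MEPCE (the 7SK capping enzyme) at 0.49, CDK9 (the P-TEFb kinase) at 0.70 and CCNT2 (a P-TEFb cyclin) at -0.41. SRP and SRP receptor mRNAs had a median of -0.47, with 2 of 8 called lower and 0 higher, beside 10.4% and 10.0% of all genes. SRP9, of the Alu domain of the particle, was the most abundant of these called, with 95, 515 and 121 counts in PSF-RIP, against 254 and 243 in the inputs (log2 fold change -2.03, adjusted p = 0.00126 by edgeR). SRP14 (-0.81), SRPRA (0.64) and SRPRB (-0.13) did not pass.

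mRNAs of RNA polymerase III and its factors had a median of 0.20, with 3 of 29 called higher and 3 lower in PSF-RIP, which is near the shares of all genes (10.0% and 10.4%). Of the most abundant, GTF3C1 and GTF3C5, subunits of TFIIIC, were higher (1.48 and 1.30, adjusted p of 0.00873 and 0.0207 by edgeR). BDP1, a subunit of TFIIIB, was at 0.06 and did not pass. These calls depend on the scale, since TMM from genes of up to 500 nt called 0 genes higher and 16 lower. With No.10-3, 0 genes of these 4 lists passed the test. RNA polymerase III genes lay under vehicle in both treated libraries for 16 of 29 and over it in both for 1, against 32.6% and 33.1% of all genes. SRP genes lay over vehicle in both for 6 of 8 and under it in both for 0. BDP1 differed between the treated libraries, at -0.51 in replicate 1 and 1.25 in replicate 2.

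**Figure D5:**
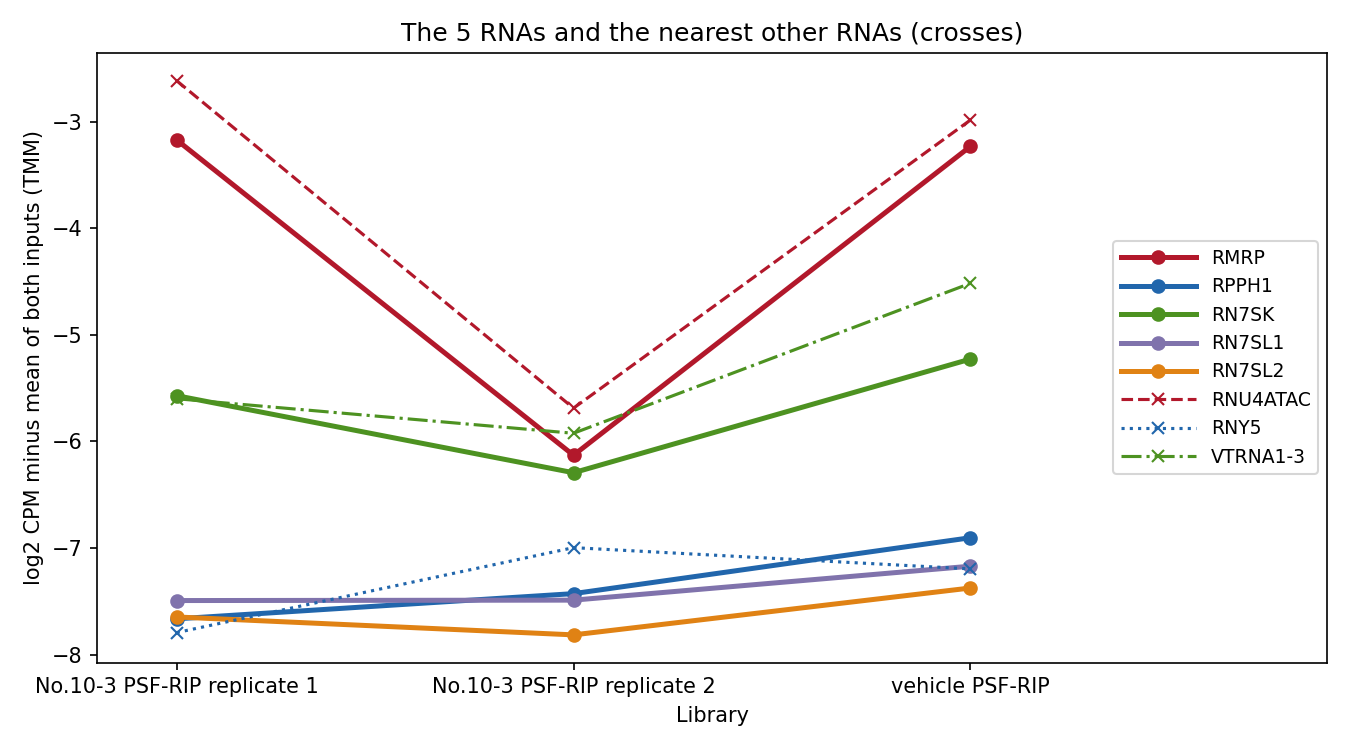
log2 CPM minus the mean of both inputs (TMM scale) in the 3 PSF-RIP libraries for the 5 RNAs (solid lines) and the nearest other RNA of each (crosses). RMRP and RNU4ATAC both lie near -3 in No.10-3 replicate 1 and vehicle and under -5 in replicate 2, RN7SK runs beside VTRNA1-3, and RPPH1, RN7SL1, RN7SL2 and RNY5 lie near -7 or below throughout.

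Likeness to the 9141 other genes that averaged 10 CPM or more was measured as the distance between centred log2 CPM profiles over the 5 libraries, a smaller value being more alike. The nearest to RMRP were RNU4ATAC (0.59), the U4atac RNA of the minor spliceosome, RNU6ATAC (0.61), its partner, and SNORA12 (0.75), an H/ACA snoRNA. RMRP was farther from the other members, at 2.38 from RN7SK and 4.18 from RPPH1. RPPH1 was nearest to RN7SL1 (0.36) and RN7SL2 (0.50), and outside the members to RNY5 (0.58), RNY4 (0.99) and VTRNA1-2 (1.06). The same 3 RNAs were nearest to RN7SL1 and RN7SL2. These 3 averaged 10 CPM only through the inputs: in PSF-RIP RNY5 had 2, 12 and 6 counts, RNY4 0, 6 and 1, and VTRNA1-2 2, 11 and 4. They are high in input and near 0 in PSF-RIP, so their place is uncertain. RN7SK was nearest to VTRNA1-3 (0.68), RNY1 (0.94) and RNU4-1 (1.22), and was about as far from RPPH1 (1.93) as from RN7SL1 (1.94). These distances describe 5 libraries and carry no test.

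Genes beside the 5 RNAs were counted too. By RefSeq, RN7SL1 overlaps RPS29, a ribosomal protein gene, which had 260, 279 and 374 counts in PSF-RIP, against 985 and 771 in the inputs (log2 fold change -3.14). CCDC107, the nearest gene to RMRP, had 60, 86 and 62 counts in PSF-RIP, against 11 and 18 in the inputs. PARP2, the nearest to RPPH1, had 26, 92 and 83, against 11 and 5. GSTA4, the nearest to RN7SK, had 18, 54 and 30, against 6 and 7. Their log2 fold changes over input were 0.53, 1.28 and 0.55. Neighbours farther off were at -0.86 (CCNB1IP1, by RPPH1), -0.62 (CILK1, by RN7SK), -1.49 (LRR1, by RN7SL1) and -0.26 (ARF6, by RN7SL2). Whether reads of a neighbour enter the counts of the 5 RNAs was not tested. Nor was the reverse, such as reads of RN7SL1 entering the counts of RPS29, which it overlaps.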

How the data were processed

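The members, gene lists and tests were chosen with earlier results of these data known. The authors deposited 1 table with whole-number read counts, taken as raw counts, a gene length (an other value, as listed per the file headers) and FPKM values. Libraries were made from total RNA with a stranded TruSeq kit, per the labels' protocols. FPKM was computed as count over length and library total. The 3 deposited FPKM columns of PSF-RIP equal it to within a relative deviation of 4.81e-08, and the other 2 FPKM columns were not used. TopHat2 2.1.0, Bowtie2 2.2.6, Bowtie and hg19 are named in the submitters' processing notes. The sources used here give no counting tool, strand setting or treatment of multi-mapped reads. No sequence or coordinate is printed, since the gene table used for neighbours is of a later assembly.

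Counts were scaled with TMM factors and tested with edgeR 4.0.16 (R 4.3.3, glmQLFit and glmQLFTest, Benjamini-Hochberg, threshold 0.05) over genes averaging 1 CPM or more in the libraries fitted: No.10-3 against vehicle over 3 PSF-RIP libraries, and PSF-RIP against input over 5. SE is the fold change divided by the square root of F. Log2 CPM used a prior count of 2. The test was checked on simulated data. Named genes were the members, up to 4 of highest mean CPM per list, and the 3 nearest profiles of each member. RNAs of lists with no match (near copies of the members) gave no value. The planned promoter motif search was not run. Alternatives were other scalings and filters, DESeq2 1.42.0 and left-out libraries. Some genes that this rule names are not reported here.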

Additional observations from a re-analysis of the deposited data

How the results depend on the processing

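Under 16 alternatives, 2 of which are the same fit (No.10-3 PSF-RIP alone, and without vehicle), all 5 RNAs stayed lower in PSF-RIP than in input, from -1.39 to -4.04 for RMRP, -3.30 to -5.91 for RN7SK, -4.94 to -7.55 for RPPH1, -5.03 to -7.51 for RN7SL1 and -5.25 to -7.74 for RN7SL2 (log2), and RMRP lay between -4.37 and -3.26 relative to the median gene. The number of genes called there was 2722 (1337 higher, 1385 lower). It was 11660 with library totals (11611 higher, 49 lower), 7778 with totals without the 5 RNAs, chosen after seeing the data (7615 higher, 163 lower), 16 with TMM from genes of up to 500 nt (0 higher, 16 lower) and 1405 for No.10-3 PSF-RIP alone, which is the fit without vehicle. Leaving out 1 library gave 602 (second input) to 4799 (No.10-3 replicate 2), with 1677 without replicate 1 and 1155 without the first input.

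For No.10-3 against vehicle, TMM from genes of up to 500 nt moved the median gene to 1.13 and turned RPPH1 to 0.51, RN7SK to 0.27, RN7SL1 to 0.78 and RN7SL2 to 0.71, while relative to that median they lay at -0.62, -0.85, -0.35 and -0.42. RMRP turned to 0.063 in the fit of all libraries without replicate 2. Leaving out a treated library gave 26 (replicate 2) to 870 (replicate 1) called genes, with a spread taken from the input pair alone. In those fits the adjusted p by edgeR was 7.55e-92 for RMRP, 4.83e-18 for RN7SK, 0.00127 for RPPH1, 0.0166 for RN7SL2 and 0.0810 for RN7SL1 without replicate 1, and 1.74e-05 for RPPH1 and at least 0.255 for the other 4 without replicate 2. No other alternative called a member. Vehicle PSF-RIP could not be left out. No paired analysis was possible because the labels number 1 sample only. Depth was no limit for the members: their lowest count was 2773.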
